A study of Triticum aestivum with 12 samples.

Results

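TraesCS3B02G395900 is a wheat gene on chromosome 3B that the deposited annotation describes as delta-1-pyrroline-5-carboxylate synthase (P5CS), and its transcript level is described here in every library of the study. It is 1 gene of the 83486 in the normalized count table, taken by its identifier, and 3 further genes with the same description serve as its comparison. RNA was sequenced from shoots and roots of Najran wheat, a salt-tolerant Saudi cultivar of bread wheat, after 4 weeks of watering with 200 mM NaCl (salt) or with tap water, 0 mM NaCl (control). The 12 libraries form 4 groups of 3, salt shoots, control shoots, salt roots and control roots, all of the same cultivar. The methods state that plants were pooled in pairs per sample. The study picked this gene among its own differentially expressed genes for RT-qPCR, so the salt comparisons below are not independent evidence of its direction. It lists the gene as upregulated in both roots and shoots, and reports changes in the same direction by RT-qPCR on the same RNA samples.

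P5CS is a bifunctional enzyme that phosphorylates and reduces glutamate, and it is generally regarded as the rate-limiting step of proline synthesis in plants. P5C reductase completes the synthesis, ornithine aminotransferase offers another entry to the pathway from ornithine, and proline dehydrogenase starts proline breakdown in mitochondria. Proline is a compatible solute that many plants accumulate under salt or drought. Bread wheat carries A, B and D genomes, so that most genes exist as near-identical copies, and an estimated count can be split among such copies.

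The gene spans bases 623824481 to 623830911 of chromosome 3B on the plus strand in the assembly of Ensembl Plants 51, a span of 6431 bp. The only designed sequences of this gene in the study are the 2 RT-qPCR primers, shown here because the study lists them for this gene, each 5′ to 3′ with no bases marked. Whether they also match the other P5CS genes was not tested.
TRAES-F: tctctctgtgcgaggaatga
TRAES-R: agcatagatgtaccgatgcaa
The forward primer is 20 bases long with 50% G or C, and the reverse primer is 21 bases long with 42.9% G or C.

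The deposited values are normalized counts, estimates of transcript abundance per gene after the authors' normalization, and not whole reads. Their totals were 18565098 to 19748450 in salt shoots, 20513240 to 25371113 in control shoots, 13890189 to 14183797 in salt roots and 14878135 to 15863307 in control roots. The tissue labels were checked on 88 genes of chlorophyll a-b binding proteins and Rubisco small chains, which took 4.33% to 6.17% of the total in the 6 shoot libraries and 0.00287% to 0.0139% in the 6 root libraries. No root marker of the list fixed for this check carried a description, so the roots were checked only by this near-absence of shoot transcripts.

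Under salt the P5CS gene reached 8677, 6920 and 7368 normalized counts in shoots (replicates 1 to 3), against 475, 578 and 259 in control shoots. In roots it stood at 2755, 2157 and 1771 in salt-treated plants, against 1016, 803 and 474 in control plants. The salt libraries lay above every control library of the same tissue, with a far wider gap in shoots than in roots.

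**Figure D1:**
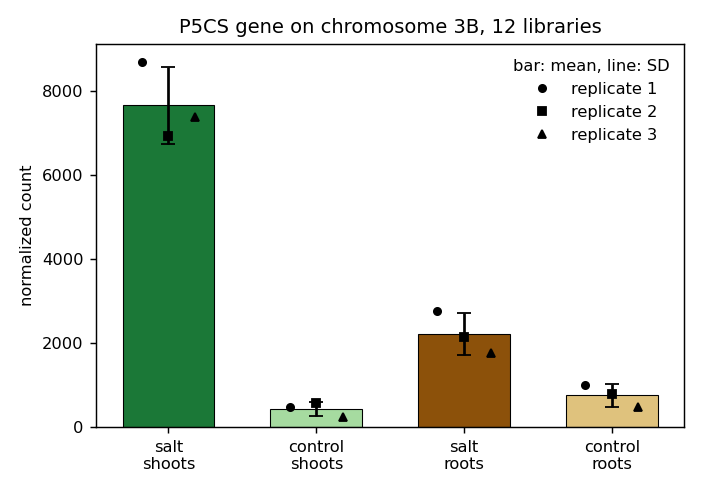
Normalized count of the P5CS gene TraesCS3B02G395900 in salt shoots, control shoots, salt roots and control roots. Bars are means, lines are ± 1 SD and points are the 3 libraries of a group; salt shoots average 7655 normalized counts and control shoots 437.

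In shoots P5CS rose under salt, with a mean of 7655 ± 913 normalized counts in salt shoots and 437 ± 163 in control shoots (SD, n = 3 each), a ratio of means of 17.5. The log2 fold change, taken as in all fits on log2(normalized count + 1), was 4.20 (SE 0.28, 95% interval 3.56 to 4.83) with an adjusted p of 0.000138 (limma, Benjamini-Hochberg over 44647 genes). A gene is called here, by the study's own cut-offs, where the adjusted p is below 0.01 and the log2 fold change reaches 1 in either direction, and 5.28% of all genes tested in shoots were called, with 2.3% of all genes called as higher. Of the 44647 genes, 212 (0.475%) had a larger log2 fold change than P5CS and 78 had a smaller p. The 2 groups did not overlap, as for 16.4% of all genes with salt shoots higher, and an exact two-sided permutation of 3 libraries against 3 gave p = 0.1, the smallest this design allows. The call held with each library left out in turn.

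In roots the mean was 2228 ± 496 normalized counts in salt roots and 764 ± 273 in control roots (SD, n = 3 each), a ratio of means of 2.91. The log2 fold change was 1.59 (SE 0.31, 95% interval 0.87 to 2.30), and its adjusted p of 0.0179 (limma, Benjamini-Hochberg over 44737 genes) missed the threshold of 0.01 but not one of 0.05. The miss belongs to the limma fit used here, and the study, with its own count model, lists the gene as upregulated in roots. At 0.01, 3.47% of all genes tested in roots were called, 1.17% as higher, and at 0.05 the shares were 12% and 4.18%. In all, 1652 of 44737 genes (3.69%) had a larger log2 fold change than P5CS. The root groups did not overlap, as for 17.3% of all genes with salt roots higher, and the exact two-sided permutation p was 0.1. Without control root replicate 2 the log2 fold change was 1.66 and the adjusted p 0.0748 (limma), and in a fit of all 12 libraries the adjusted p was 0.00554.

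The salt response of P5CS was larger in shoots than in roots. The difference of the log2 fold changes, shoots minus roots, was 2.61 (SE 0.45, 95% interval 1.63 to 3.59, adjusted p = 0.00589, limma with Benjamini-Hochberg adjustment over 51487 genes), a comparison in which 2.13% of all genes were called and 1.21% were called in this direction. This call rested on the full set of libraries. The adjusted p stayed under 0.01 without control shoot replicate 2 (0.00738), salt root replicate 1 (0.00842) or control root replicate 3 (0.00413). Without any one of the other 9 libraries it was 0.0102 to 0.0212 with a difference of 2.27 to 2.71, and without the variance trend it was 0.0133. With the replicate number as a block it was 0.00153 (limma) at the same difference of 2.61 (SE 0.30).

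The levels of P5CS ran from highest to lowest through salt shoots, salt roots, control roots and control shoots. Salt shoots exceeded salt roots 3.44 times in the mean, with a log2 fold change of 1.80 (SE 0.20, adjusted p = 0.000299, limma) where 29.8% of all genes were called and 17.4% were called as higher in shoots. These 2 groups did not overlap, as for 28.6% of all genes with salt shoots higher. In control plants the order of the tissues was the other way round, with 437 normalized counts in shoots and 764 in roots, but the ranges overlapped and the log2 fold change of -0.81 (SE 0.36, 95% interval -1.63 to 0.01) was not called (adjusted p = 0.0924, limma, with 36.3% of all genes called). Same-numbered control shoots and control roots deviated together over all genes, and P5CS was lower in shoots in 3 of 3 such pairs. With the replicate number as a block the adjusted p was 0.00372 (limma) at the same log2 fold change, which is smaller than 1 in size and so still not called. Control shoots and control roots were the neighbours in the order whose ranges overlapped. Salt roots and control roots did not overlap, but their difference was not called either (adjusted p = 0.0179, limma). The spread within a group was widest in the control plants, with a coefficient of variation of 11.9% in salt shoots, 37.2% in control shoots, 22.2% in salt roots and 35.7% in control roots. A level in a whole organ cannot tell a change in the share of cells that express the gene apart from a change in RNA per cell.

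Scaling every library to the same total in place of the authors' normalization moved the median of all genes to 0.12 in roots and 0.19 in shoots (log2), and to -0.49 and -0.59 for shoots over roots under salt and in control plants. P5CS then had log2 fold changes of 4.41 in shoots, 1.73 in roots, 1.34 for salt shoots over salt roots and -1.34 for control shoots over control roots. Only the last of these had an adjusted p on the other side of 0.05 (0.0137, limma), and no call changed.

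Among the other 3 genes described as P5CS, those on chromosomes 3A and 3D followed a pattern close to that of the 3B gene, and the gene on 1B moved less. TraesCS3A02G363700 spans bases 611964689 to 611971232 of chromosome 3A and TraesCS3D02G357200 bases 469479590 to 469486268 of 3D, both on the plus strand. TraesCS1B02G290600 spans bases 507847765 to 507856017 of chromosome 1B on the minus strand. The descriptions of the 3B and 3D genes point to the same protein entry. Whether reads of the 3A, 3B and 3D genes were assigned to the right gene was not tested.

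The 3A gene had 8204, 6824 and 6135 normalized counts in salt shoots, against 477, 486 and 310 in control shoots. It had 2936, 2010 and 2377 in salt roots, against 735, 508 and 400 in control roots. It rose in both tissues, with log2 fold changes of 4.07 in shoots (SE 0.21, adjusted p = 6.46e-05, limma) and 2.18 in roots (SE 0.26, adjusted p = 0.00386, limma). The root call was lost without salt root replicate 1 or any one control root library, at adjusted p from 0.0103 to 0.0319 and log2 fold changes from 1.98 to 2.42.

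The 3D gene was listed at far smaller values, 267, 136 and 180 normalized counts in salt shoots, against 11.4, 25.7 and 4.25 in control shoots. It had 64.2, 59.4 and 68.1 in salt roots, against 25.2, 21.0 and 20.6 in control roots. The salt and control libraries were apart in both tissues. It was called as higher in shoots (log2 fold change 3.97, SE 0.55, adjusted p = 0.00301, limma) and, just inside the threshold, in roots (1.48, SE 0.24, adjusted p = 0.00989). The root call was lost with any 1 library left out (adjusted p 0.0159 to 0.0579), and the shoot call without salt shoot replicate 1 or 3 or control shoot replicate 1 (0.0107 to 0.0155).

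The 1B gene had 2025, 2111 and 2081 normalized counts in salt shoots, against 757, 913 and 719 in control shoots. It had 2358, 1978 and 2122 in salt roots, against 1546, 1369 and 1351 in control roots. Its shoot change was called (log2 fold change 1.39, SE 0.14, adjusted p = 0.000726, limma), and its root difference of 0.60 (SE 0.16, adjusted p = 0.0440) was not. Under salt the 2 tissues had nearly the same level of the 1B gene, at a log2 fold change of -0.05 for shoots over roots, where the 3B, 3A and 3D genes had 1.80, 1.54 and 1.54.

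**Figure D2:**
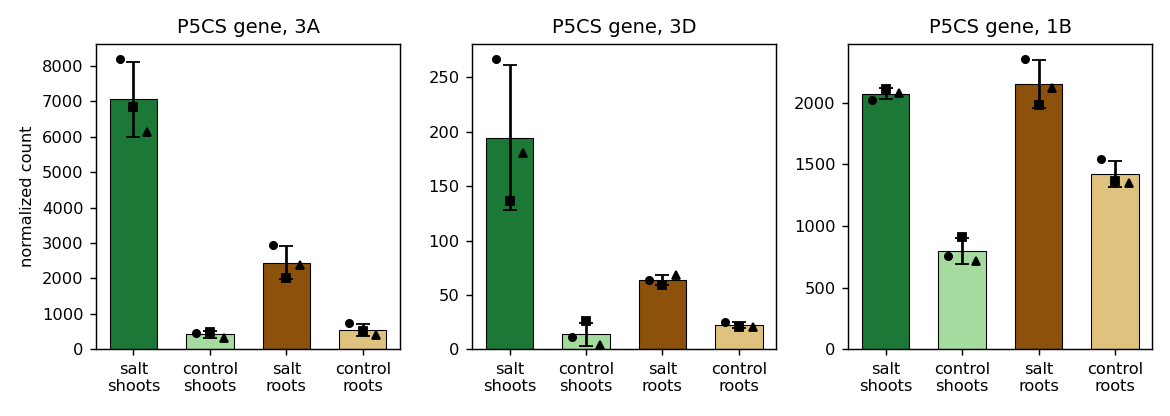
Normalized counts of the 3 other genes described as P5CS, on chromosomes 3A, 3D and 1B, in salt shoots, control shoots, salt roots and control roots, each panel with its own axis from 0. Bars are means, lines ± 1 SD and points the 3 libraries; the 3A gene averages 7054 in salt shoots and 424 in control shoots, the 1B gene 2073 and 796.

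The difference of the salt response, shoots minus roots, was 1.89 for the 3A gene (adjusted p = 0.00854, limma), 2.49 for the 3D gene (0.0485, not called) and 0.79 for the 1B gene (0.0291, not called). The 3A call was kept without control root replicate 3 (0.00743) and lost without any one of the other 11 libraries (0.0106 to 0.0257).

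The ratio of the 3B gene to each other P5CS gene was taken within each library and compared between salt and control, 6 comparisons chosen after the values were seen. Against the 1B gene the log2 ratio was 2.81 higher in salt shoots than in control shoots (SE 0.29) and 0.99 higher in salt roots than in control roots (SE 0.32), with the groups apart in both tissues. Against the 3A gene it was 0.13 higher in salt shoots (SE 0.16) with overlapping groups, and 0.59 lower in salt roots (a difference of -0.59, SE 0.20) with the groups apart. In these libraries the salt roots exceeded the control roots by a larger factor in the 3A gene than in the 3B gene. Against the 3D gene the differences were 0.23 in shoots (SE 0.40) and 0.10 in roots (SE 0.33), both with overlap. No exact permutation p could fall under 0.1 with 3 libraries against 3, and the smallest Benjamini-Hochberg value over the 6 was 0.2.

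Other genes of proline metabolism, glutamate metabolism and the response to water deficit were collected by their descriptions in the deposited comparison tables. These tables name 5159 of the 24878 genes that the authors called in any comparison, so the lists are incomplete. The lists hold 27 genes in all. For proline they hold the 3 other P5CS genes, 2 of P5C reductase, 1 of ornithine aminotransferase, 1 of arginase and 3 of proline dehydrogenase. A further 13 are glutamine synthetase or glutamate dehydrogenase genes, and 4 are dehydrin, ABA inducible or late embryogenesis abundant protein genes. In shoots 14 of the 27 were called as higher and 4 as lower, and in roots 2 as higher and 5 as lower. Of all genes, 2.3% and 2.99% were called higher and lower in shoots and 1.17% and 2.3% in roots. These shares are no like background, because all 27 genes come from those that the authors called in some comparison of these same libraries. The counts therefore do not show an excess for the lists. Some of the 14 also passed the filter in shoots (at least 10 in at least 3 libraries) only through the salt libraries. Such genes could only be called as higher. The number called was 8 to 14 in shoots and 0 to 9 in roots with 1 library left out (limma). It was 0 without control root replicate 2 and without control root replicate 3, 1 without control root replicate 1 and 2 without salt root replicate 1. Without control root replicate 2, 16 of the 27 had an unadjusted p under 0.05, as had 9967 of all 43488 genes tested (limma). Without control root replicate 3 these were 17 of the 27 and 11340 of all 43395. In shoots the number called was 8, 10 and 9 without salt shoot replicates 1, 2 and 3 (24 genes tested) and 11 without control shoot replicate 2.

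P5C reductase, the enzyme that turns the P5CS product into proline, is described for 2 genes, and both were called as higher in shoots and neither in roots. Of all genes, 2.3% were called as higher in shoots and 1.17% in roots. The 3B gene TraesCS3B02G538100 had 800, 714 and 772 normalized counts in salt shoots, against 192, 186 and 193 in control shoots. Its log2 fold change was 2.00 in shoots (SE 0.13, adjusted p = 0.000138, limma) and 1.07 in roots (adjusted p = 0.0165, not called). The control shoot libraries of this gene lay close together, unlike those of P5CS. The 3D gene TraesCS3D02G483400 had 182, 150 and 152 normalized counts in salt shoots, against 61.8, 71.4 and 39.2 in control shoots. Its shoot change of 1.51 (adjusted p = 0.00675, limma) lost the call with any 1 library left out (0.0136 to 0.0312), and its root difference was 0.72 (adjusted p = 0.188).

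Ornithine aminotransferase, which makes the same intermediate from ornithine, is described for TraesCS5A02G375000. It had 1137, 1128 and 1632 normalized counts in salt shoots, against 559, 377 and 213 in control shoots. The shoot change was called (log2 fold change 1.84, adjusted p = 0.00836, limma), and the root difference of 0.40 was not (adjusted p = 0.226). The shoot call was kept only without control shoot replicate 1 when 1 library was left out, at adjusted p from 0.0144 to 0.0319 otherwise. Arginase, which releases ornithine from arginine, is described for TraesCS2D02G034900, with log2 fold changes of 0.49 in shoots and -0.13 in roots, neither called (adjusted p 0.214 and 0.793, limma).

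All 3 genes described as proline dehydrogenase were called as lower under salt in roots and 2 of the 3 in shoots, and none of the 3 was called higher. Of all genes, 2.3% were called as lower in roots and 2.99% in shoots. The 1B gene TraesCS1B02G223300 had 329, 552 and 395 normalized counts in salt roots, against 4425, 4480 and 4351 in control roots. It had 893, 1036 and 1032 in salt shoots, against 1716, 2424 and 2160 in control shoots. The 1B gene had its larger salt change in roots, where P5CS had its smaller one. For the 1B gene the log2 fold change was -3.41 in roots (SE 0.21, adjusted p = 0.000923, limma) and -1.08 in shoots (adjusted p = 0.00438). The difference of its responses, shoots minus roots, was 2.33 (adjusted p = 0.000669, limma), and this call held with each of the 12 libraries left out. The 1A gene TraesCS1A02G209100 had log2 fold changes of -2.86 in roots and -1.48 in shoots, both called (adjusted p 0.00326 and 0.00624, limma). The 1D gene TraesCS1D02G212400 had -2.73 in roots (adjusted p = 0.00839, limma) and -1.39 in shoots (adjusted p = 0.0236, not called). The differences of their responses, 1.39 for 1A and 1.35 for 1D, were not called (adjusted p 0.0892 and 0.215). The mean level in control roots was 10.4 times that in salt roots for the 1B gene, 6.83 times for 1A and 5.87 times for 1D.

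The root calls of proline dehydrogenase were lost without control root replicate 2 or 3 for 1B (adjusted p 0.0115 to 0.0175), without any one control root library for 1A (0.0160 to 0.0260), and without any library but salt root replicate 2 for 1D (0.0151 to 0.0517), at log2 fold changes from -3.42 to -2.38 (limma). The shoot calls of 1B and 1A were each kept only without control shoot replicate 1 (0.0112 to 0.0304 otherwise), and scaling to the same total removed both, at -0.87 and -1.27.

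**Figure D3:**
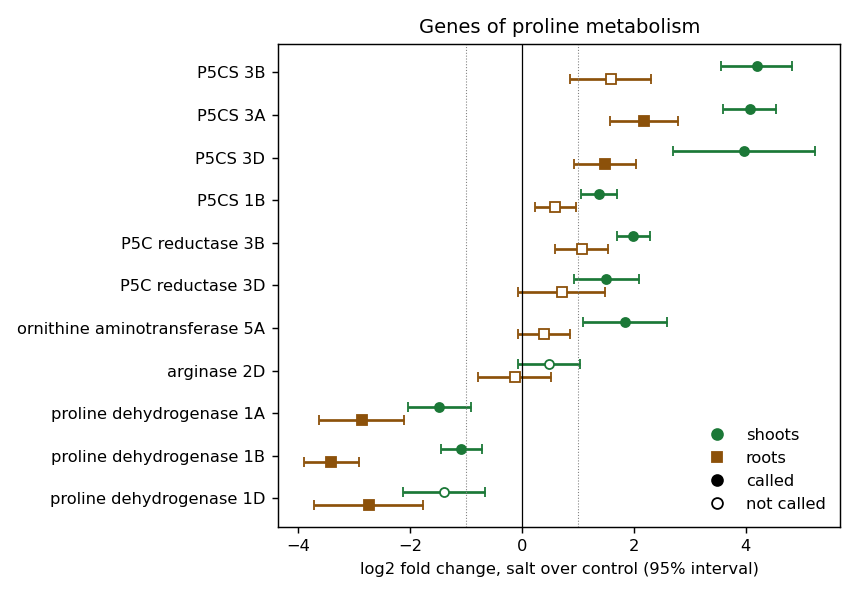
Log2 fold change, salt over control, with its 95% interval for the 4 P5CS genes and the genes described as P5C reductase, ornithine aminotransferase, arginase and proline dehydrogenase; circles are shoots, squares are roots and filled symbols are called genes. P5CS 3B lies at 4.20 in shoots and 1.59 in roots, and proline dehydrogenase 1B at -1.08 in shoots and -3.41 in roots.

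Glutamate, the substrate of P5CS, is used by glutamine synthetase and formed or used by glutamate dehydrogenase, enzymes described for 13 genes. No gene was described as glutamate synthase. In shoots 6 of the 13 were called as higher and 2 as lower, and in roots 0 as higher and 2 as lower (limma). Of the 6, TraesCS4A02G266900 passed the filter in shoots only through the salt libraries and could only be called as higher. Of all genes, 2.3% were called as higher and 2.99% as lower in shoots, and 1.17% and 2.3% in roots. The median log2 fold change of the 13 was -0.55 in each tissue, against -0.01 in shoots and -0.02 in roots over all genes. At an unadjusted p under 0.05, 6 of the 13 were higher and 7 lower in shoots, and 3 higher and 7 lower in roots. That cut-off was passed in either direction by 13556 of all 44647 genes in shoots and 14064 of all 44737 in roots (limma). The 4 genes named by their adjusted p all belong to those called as higher in shoots. The glutamine synthetase gene TraesCS4A02G063800 averaged 1878 ± 275 normalized counts in salt shoots and 404 ± 38.3 in control shoots (SD, n = 3 each), a log2 fold change of 2.21 (adjusted p = 0.000176, limma), and differed by 1.06 in roots (adjusted p = 0.0227, not called). A second glutamine synthetase gene, TraesCS4B02G240900, had log2 fold changes of 1.88 in shoots (adjusted p = 0.00127, limma) and 1.45 in roots (adjusted p = 0.0104, not called). Without salt root replicate 3 its root value was 1.65 and passed (0.00544). Not all glutamine synthetase genes rose in shoots. TraesCS6A02G298100 (mean 10634 in control shoots) and TraesCS6B02G327500 (10299) were the 2 called as lower, at -1.39 and -1.31 (adjusted p 0.00182 and 0.00205, limma). TraesCS2A02G500400, TraesCS2B02G528300 and TraesCS2D02G500600, at 16783, 28833 and 3606 in control shoots, had -0.54, -0.56 and -0.59 (0.0727 to 0.159, not called). Glutamate dehydrogenase can both release and consume glutamate. Of its genes, TraesCS2B02G409300 and TraesCS2A02G389900 rose in shoots, by 1.60 (adjusted p = 0.000777) and 1.39 (0.00112, limma), and had log2 fold changes of -0.19 and -1.43 in roots (adjusted p 0.548 and 0.0174, neither called). Without salt root replicate 3 the root value of TraesCS2A02G389900 was -1.71 and passed (0.00437). The other glutamate dehydrogenase genes, TraesCS5A02G434100 and TraesCS5B02G437100, lay lower in salt shoots, at -0.84 and -0.75 (adjusted p 0.0150 and 0.0352, limma, not called). They were the 2 called as lower in roots, at -1.70 and -1.56 (adjusted p 0.00395 and 0.00435, limma).

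Dehydrins, ABA inducible and late embryogenesis abundant proteins mark a response to water deficit, and 4 genes carry such a description. Of these, 2 were called as higher in shoots and 0 in roots (limma), beside 2.3% and 1.17% of all genes. Both called genes passed the filter in shoots only through the salt libraries, so they could only be called as higher. At an unadjusted p under 0.05, 1 of the 4 was higher and 1 lower in roots, where 14064 of all 44737 genes passed in either direction (limma). Dehydrin WZY2, TraesCS6A02G350700, averaged 1350 ± 128 normalized counts in salt shoots and 3.30 ± 3.33 in control shoots, and 326 ± 24.7 in salt roots and 170 ± 50.9 in control roots (SD, n = 3 each). The ABA inducible protein gene TraesCS1B02G381500 averaged 32.5 ± 3.11 in salt shoots and 0.895 ± 0.825 in control shoots, and 178 ± 32.7 in salt roots and 407 ± 134 in control roots (SD, n = 3 each). As with P5CS, their log2 fold change was larger in shoots than in roots (differences of 7.74 and 5.39, adjusted p 0.000335 and 0.000287, limma). Unlike P5CS, TraesCS1B02G381500 lay lower under salt in roots (log2 fold change -1.14, adjusted p = 0.0422, limma, not called). With a pseudocount of 0.1 the difference of WZY2 missed the threshold (adjusted p = 0.0111), as did the shoot change of TraesCS1B02G381500 (0.0168).

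The genes most like P5CS across the 12 libraries were ranked by Pearson's r of log2(normalized count + 1) among 51486 other genes. These r values describe 4 groups of 3 libraries that share the same treatments and tissues, so they follow largely from the group means. The 3A gene came first (r = 0.986), and the 3D gene (0.972) was the last of the 5 highest. Between them stood TraesCS5B02G143400 (0.975) and TraesCS3B02G254700 (0.974), which carry no description, and TraesCS5B02G372500 (0.972), described as arogenate dehydratase, an enzyme of phenylalanine synthesis. Of the 3 that are not described as P5CS, TraesCS3B02G254700 had log2 fold changes nearest to those of P5CS, with a mean of 1995 normalized counts in salt shoots and 68.3 in control shoots, and of 577 in salt roots and 200 in control roots. Its log2 fold changes were 4.86 in shoots (called) and 1.52 in roots (adjusted p = 0.0235, limma, not called). Arogenate dehydratase had a similar pattern on a smaller scale, with 1.14 in shoots. That shoot call was kept only without control shoot replicate 1 when 1 library was left out (adjusted p 0.0106 to 0.0145 otherwise, limma). Among genes with a description, sucrose synthase TraesCS4A02G140000 (r = 0.961), which cleaves sucrose, and TraesCS7B02G227900 (0.957), described as the metal transporter OsNramp1, came next after these. Sucrose synthase was called as higher in shoots at 2.84 and in roots at 1.89, the root call being kept only without salt root replicate 3 when 1 library was left out (0.0226 to 0.0400 otherwise). Of the proline genes, P5C reductase on 3B ranked 25 (r = 0.948), ornithine aminotransferase 71 (0.921) and the 1B P5CS gene 367 (0.845), and r was -0.67 to -0.59 for the 3 proline dehydrogenase genes.

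The 3 gene identifiers on each side of P5CS on chromosome 3B carry no description. On the lower-numbered side, TraesCS3B02G395600 at 165.8 kb was called as higher in shoots (log2 fold change 2.55, adjusted p = 0.00043, limma) and not in roots (0.82, adjusted p = 0.0698). TraesCS3B02G395700 at 162.7 kb was called as higher in both tissues, at 1.67 in shoots and 1.64 in roots (adjusted p 0.0071 and 0.00289, limma). Its shoot call was lost with any 1 library left out (0.0104 to 0.0318) and its root call without salt root replicate 1 or any one control root library (0.0127 to 0.0271). TraesCS3B02G395800, the nearest in number, was too low to be tested, with no more than 8.64 normalized counts in salt shoots. On the other side TraesCS3B02G396000, TraesCS3B02G396100 and TraesCS3B02G396200 had log2 fold changes of 0.46 to 0.91 in shoots and 0.12 to 0.31 in roots, none called.

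**Figure D4:**
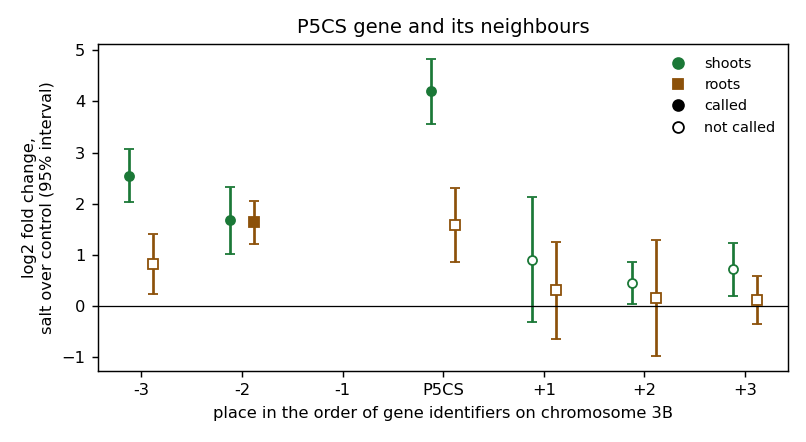
Log2 fold change, salt over control, with its 95% interval for P5CS and the 3 gene identifiers on each side of it on chromosome 3B; circles are shoots, squares are roots and filled symbols are called genes. P5CS lies at 4.20 in shoots, the genes at places -3 and -2 at 2.55 and 1.67, and place -1 was too low to be tested.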

How the data were processed

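Per the study's methods, the authors trimmed reads of a non-directional library kit with Trimmomatic and quantified them with Salmon, and normalized gene-level estimates with DESeq2 after tximport. The submitters' processing notes list FastQC 11.8, Trimmomatic 0.36 and Salmon 0.12.0. The deposited table of 12 libraries holds these normalized counts, a signal per gene that the authors scaled and that is not whole reads, so that counting error is unknown and precision rests on 3 libraries per group. The study calls the replicates biological without stating that they grew apart, so p-values measure the spread between these samples. The authors' 4 comparison tables hold a mean, fold changes, test statistics and p-values, of which none were used, and only their gene positions and descriptions (other text in the deposited tables) were read. All library columns were mapped to a label. Without strand, reads of antisense partners cannot be told apart.

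Log2(normalized count + 1) was fitted with limma 3.58.1 in R 4.3.3 (linear model, empirical Bayes with a variance trend, Benjamini-Hochberg adjustment) over genes with at least 10 in at least 3 libraries of the fit. This takes the place of the authors' count model, since whole reads were not recovered. Each comparison used its own 6 libraries, and the difference of the responses used all 12. The fits were tested on simulated data. Exact permutations, ratios and figures came from Python 3.11.15, scipy 1.17.1 and matplotlib 3.10.9. The gene and all lists were chosen with earlier results of these data known. Named genes were the P5CS genes, up to 4 called genes per list by adjusted p, the 5 genes most correlated with P5CS overall and among described genes, and 3 identifiers on each side. Arginase was named as the sole gene of its list. Further genes of the glutamate list were named where they lay lower under salt or passed the filter only through salt shoots. Alternatives were the pseudocount (0.1, 10), the filter (none, or a mean of at least 50), a threshold of 0.05, equal totals, no variance trend, all 12 libraries in a fit, the replicate number as a block, and each library left out. No described gene stood for proline transport, glycine betaine synthesis or root markers, and 2 folylpolyglutamate synthase genes were left out of the glutamate list.

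Same-numbered salt and control libraries did not deviate together (r of deviations -0.013 to 0.096 in roots and 0.011 to 0.047 in shoots). Same-numbered control shoots and control roots did in every pair (0.133 to 0.315). In salt plants same-numbered shoots and roots had 0.068 to 0.257, and those of unlike number -0.189 to -0.009. The study describes its roots and shoots as coming from the same plants, but the labels do not state which plants share a number. Fits without the replicate block treat all libraries as independent.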

Additional observations from a re-analysis of the deposited data

Results flagged for a closer look

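The difference of the salt response between the tissues was read for P5CS, the listed genes, its neighbours and the genes most like it. Of these genes 8 passed the cut-offs (limma over all 12 libraries), as did 1097 of all 51487 genes (2.13%). The listed genes had been called by the authors in these same libraries, and others were chosen for their likeness to P5CS over them. The share over all genes is therefore no like background, and the count of 8 does not show an excess. Values are the log2 fold change in shoots minus the log2 fold change in roots. P5CS itself, TraesCS3B02G395900, differed by 2.61 (adjusted p = 0.00589) and the 3A P5CS gene, TraesCS3A02G363700, by 1.89 (0.00854). The proline dehydrogenase gene TraesCS1B02G223300 differed by 2.33 (0.000669), since it lay lower under salt by more in roots than in shoots. The glutamate dehydrogenase genes TraesCS2A02G389900 and TraesCS2B02G409300 differed by 2.82 (0.000669) and 1.79 (0.00201). Dehydrin WZY2, TraesCS6A02G350700, differed by 7.74 (0.000335) and the ABA inducible protein gene TraesCS1B02G381500 by 5.39 (0.000287). Both had control shoot values near 0, so that the size of their difference depends on the pseudocount, and with a pseudocount of 0.1 that of WZY2 was 9.02 and no longer passed (adjusted p = 0.0111, limma). The gene TraesCS3B02G254700, which carries no description, differed by 3.35 (0.00385), but it was chosen for its likeness to P5CS over these 12 libraries, so this value is a description and no independent result. Of these 8, the calls of P5CS, the 3A gene and TraesCS3B02G254700 did not hold with every library left out, and the last was lost without control shoot replicate 1 or 3 or control root replicate 1 or 2 (0.0105 to 0.0141).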

How the results depend on the processing

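The shoot response of P5CS kept its call under every alternative (4.17 to 4.41, and 3.86 to 4.44 with 1 library left out), as did salt shoots over salt roots (1.34 to 1.80, and 1.64 to 1.96). Control shoots over control roots was called under none (-1.34 to -0.80, and -1.12 to -0.48). The root value of 1.59 passed at a threshold of 0.05 and in a fit of all 12 libraries, and was 1.28 to 1.83 with 1 library left out. The difference of the responses, 2.61, missed the threshold without the variance trend and was 2.27 to 2.92 with 1 library left out. With the replicate block P5CS had 1.59 in roots (adjusted p = 0.0120, limma) and no call of P5CS changed in the 5 comparisons. For control shoots over control roots the adjusted p was 0.00372, against 0.0924 without the block, and the value of -0.81 alone kept it from a call. With the block 285 genes were called in roots, against 1553 without it. Of the 27 listed genes 7 were called in roots, against 13 at a threshold of 0.05, 2 with the replicate block, 11 in the fit of all 12 libraries and 0 to 9 with 1 library left out. In shoots 18 were called, against 11 without the variance trend and 8 to 14 with 1 library left out. Over all genes, alternatives called 285 to 5354 in roots and 1292 to 4572 in shoots, where 2359 were called, and leaving out 1 library gave 0 to 2526 in roots and 873 to 1592 in shoots. The 0 belongs to control root replicate 2, without which 9967 genes had an unadjusted p under 0.05 (limma). For the difference of the responses 1097 genes were called, against 726 to 3078 and, with 1 library left out, 453 to 1727. Equal totals gave 1389 genes higher and 893 lower in shoots, against 1026 and 1333 as deposited. They gave 6862 higher and 9448 lower for salt shoots over salt roots, against 8213 and 5797, and 7408 and 12450 for control shoots over control roots, against 9335 and 7926. Arginase in roots turned to 0.0096 with equal totals and was -0.27 to 0.077 with 1 library left out, and TraesCS3B02G396100 in roots was -0.15 to 0.76. The study describes a salt-treated root library as an outlier in its principal component analysis, without its replicate number. In its supplement the lowest RNA integrity value belongs to control shoot replicate 1. Whether either bears on these changes was not tested, nor was any other cause.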
